A study of Mus musculus with 6 samples.

Results

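The 8 genes of the cholesterol synthesis pathway and its control taken here, Srebf2, Hmgcs1, Sqle, Idi1, Fdps, Lss, Cyp51 and Insig1, were followed in the liver of alcohol-fed and control mice. The genes were picked by name, and every probe carrying one of the 8 names was taken, which gave 20 probes of 41174 on the array and 8 gene names of 27962. All animals were 129/Sv males that were 6 to 8 weeks old at the start, and all of them received the control liquid diet for 7 days before the groups were separated. The alcohol-treated mice then had free access to a liquid diet with 4% ethanol, and the control mice to a diet of equal calories in which maltose dextran took the place of ethanol. After 1, 2 and 4 months, liver RNA of 6 mice of each group was combined into 1 pool, so each month is represented by 1 alcohol pool and 1 control pool. Both pools of a month were hybridized together on 2 two-color arrays with the dyes Cy5 and Cy3 exchanged. Since both arrays were made from the same RNA, they count as 1 replicate, and no value here measures the variation between mice.

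Liver cells make cholesterol from acetyl-CoA through mevalonate, the isoprenoids, squalene and lanosterol. SREBP-2, the product of Srebf2, is a membrane-bound transcription factor of the endoplasmic reticulum that is carried to the Golgi and cut when membrane sterol is low, and its released part switches on the enzymes of the pathway. INSIG proteins hold the SREBP carrier back in the endoplasmic reticulum when sterol is plentiful, and Insig1 is itself a target of SREBP. Among the enzymes, Hmgcs1 makes HMG-CoA in the cytosol, Idi1 interconverts the isoprenoid building blocks, Fdps makes farnesyl diphosphate, Sqle oxidizes squalene, Lss closes the ring to lanosterol and Cyp51 removes a methyl group from it.

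Counting all probes, the averaged ratios furthest from 0 among these genes belonged to Hmgcs1 at 1 month (1.53-fold higher in the alcohol pool) and to Insig1 at 4 months (1.65-fold lower), and for neither gene did both arrays and all probes give that direction. The promoters of both genes and of Srebf2 are shown because these 3 genes carry the values the results turn on, and because the named regulator binds DNA at sites of known sequence. The letters are the 250 bases before the start of the gene from RefSeq, 5′ to 3′ on the strand of the gene, in build GRCm38.p6, at chr13:119690101-119690350 (plus strand) for Hmgcs1, chr5:28071162-28071411 (plus strand) for Insig1 and chr15:82147019-82147268 (plus strand) for Srebf2. Capitals mark matches, on either strand, to the sterol regulatory element TCACNCCAC, its shorter core CACNCCAC, the CCAAT box CCAAT and the GC box GGGCGG; each TCACNCCAC also holds a CACNCCAC.
Hmgcs1: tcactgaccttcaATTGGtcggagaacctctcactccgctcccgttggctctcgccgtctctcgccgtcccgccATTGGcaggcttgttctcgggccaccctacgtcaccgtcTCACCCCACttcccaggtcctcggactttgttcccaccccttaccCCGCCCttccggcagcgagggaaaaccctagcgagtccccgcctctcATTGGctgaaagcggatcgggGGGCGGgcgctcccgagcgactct
Insig1: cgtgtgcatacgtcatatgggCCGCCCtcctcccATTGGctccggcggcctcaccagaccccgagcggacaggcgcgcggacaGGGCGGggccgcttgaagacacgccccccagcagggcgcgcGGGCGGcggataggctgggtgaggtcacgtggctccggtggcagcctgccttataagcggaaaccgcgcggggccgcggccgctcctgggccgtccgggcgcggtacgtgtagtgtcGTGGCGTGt
Srebf2: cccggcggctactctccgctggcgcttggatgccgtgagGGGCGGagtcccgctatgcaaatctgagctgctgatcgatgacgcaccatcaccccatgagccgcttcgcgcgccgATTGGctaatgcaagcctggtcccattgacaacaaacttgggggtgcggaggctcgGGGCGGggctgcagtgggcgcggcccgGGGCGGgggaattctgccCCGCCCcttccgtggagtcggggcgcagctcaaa

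Of the 8 genes, 6 matched a promoter in the table by symbol, and Sqle and Fdps did not. TCACNCCAC was present before Hmgcs1 alone of the 6, starting at position -137 counted back from the start of the gene, and it was present in 1.05% of 32851 promoters of the same length. CACNCCAC was found in Hmgcs1 and, on the opposite strand at position -9, in Insig1, against 5.29% of all promoters. CCAAT was present in 6 of 6 promoters and GGGCGG in 6 of 6, against 33.8% and 32.7% of all promoters. These matches describe letters and not bound sites.

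The ratios are the deposited log10 ratios of the arrays, turned so that a positive value means more signal in the alcohol pool, and given on the log2 scale as the average of the 2 arrays of a month with the SD between them. A gene counted as raised or lowered if the average reached 1.5-fold (0.58 on the log2 scale) with both arrays on the same side of 0. A gene measured by more than 1 probe is represented by its brightest one, described first. The brightest probes of Srebf2, Idi1 and Fdps were designed to transcript records that matched no current RefSeq symbol. For Srebf2 and Fdps another probe did match, and its values differed. With this rule 0 of 8 genes were raised and 0 of 8 lowered in each of the 3 months. Among all 25887 genes with a probe well above background, the 1-month pools marked 0.514% as raised and 0.56% as lowered, the 2-month pools 1.04% and 1.18%, and the 4-month pools 1.95% and 1.32%. Counted over all 20 probes, 1 was raised and 0 lowered in the 1-month pools, where the rule marked 0.562% and 0.63% of all probes. The 2-month pools had 0 and 0 of the 20 (1.17% and 1.28% of all probes), and the 4-month pools 0 and 1 (2.03% and 1.46%). At such rates fewer than 1 of 20 probes would be marked in any one direction, so these counts do not set the 8 genes apart from other genes.

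The median ratio of the 8 genes was 0.10, 0.06 and -0.03 in the 3 months, against 0, 0.01 and 0.00 for all genes. At 1 month 6 of the 8 lay above 0, and at 2 months again 6 of 8. At 4 months 3 of 8 lay above 0. Both arrays of a month gave the same sign for 5 of the 8 genes at 1 month, 1 at 2 months and 1 at 4 months, and the corresponding shares of all genes were 45.0%, 32.8% and 29.0%.

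**Figure D1:**
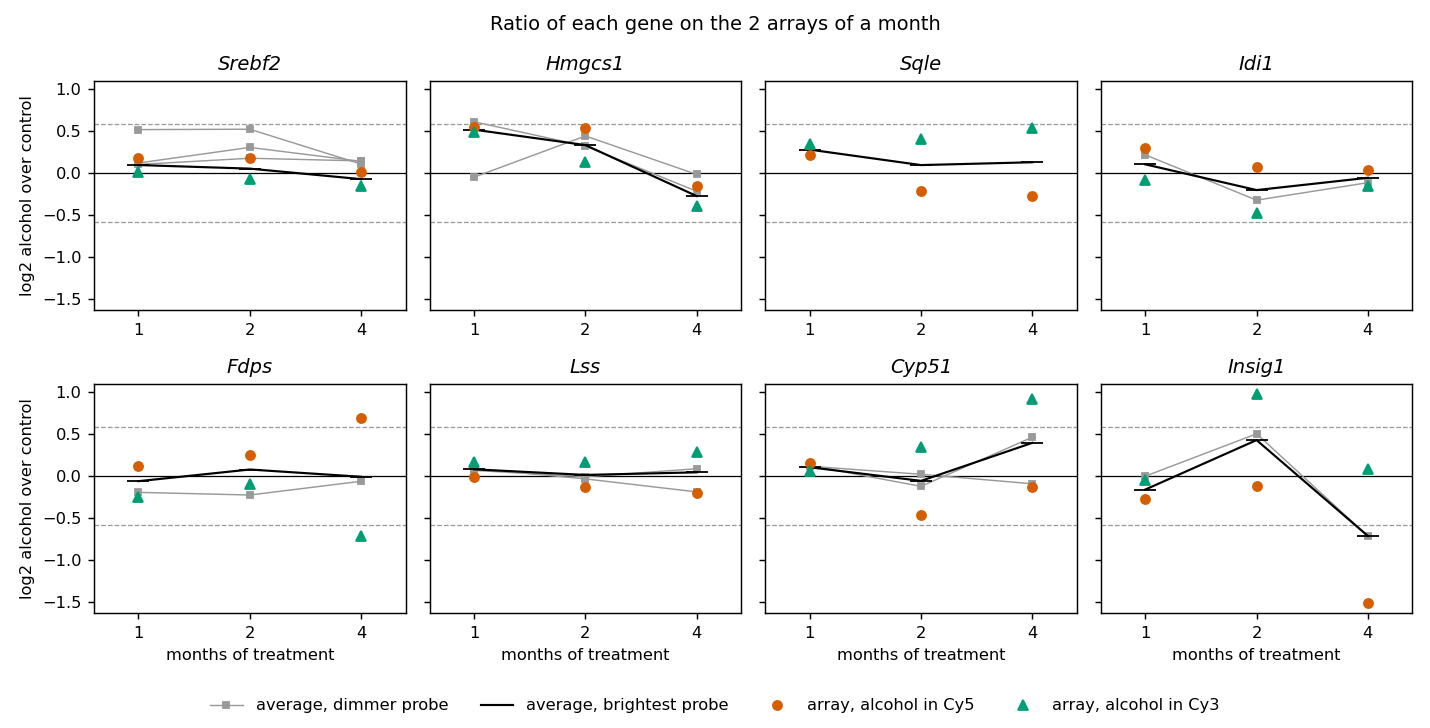
Log2 ratio of alcohol over control (vertical axis) against months of treatment for the 8 genes. Circles and triangles are the 2 arrays of a month for the brightest probe, the black line is their average, grey squares are the averages of the other probes, and dashed lines mark 1.5-fold; Hmgcs1 lies above 0 on both arrays at 1 and 2 months and below 0 on both at 4 months, and the arrays of Insig1 at 4 months stand apart at -1.51 and 0.08.

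The regulator Srebf2 has 4 probes. Its brightest probe (A_52_P473344) read 0.18 and 0.01 in the 1-month pair of arrays, 0.17 and -0.07 in the 2-month pair, and 0.01 and -0.16 in the 4-month pair, with alcohol in Cy5 and in Cy3. These values lie within 0.2 of 0 on all 6 arrays. A second probe (A_51_P377508) gave 0.61 and 0.43 in the 1-month pair, 0.28 and 0.77 in the 2-month pair, and -0.28 and 0.49 in the 4-month pair. Its averages were 0.52 ± 0.12, 0.52 ± 0.34 and 0.11 ± 0.54 (SD of 2 arrays), that is 1.43-fold, 1.44-fold and 1.08-fold above control. The probe was thus higher in the alcohol pool on both arrays at 1 and 2 months, short of 1.5-fold, and the arrays were on opposite sides at 4 months. The remaining probes averaged 0.12, 0.31 and 0.14 (A_52_P302001) and 0.10, 0.18 and 0.15 (A_52_P665742) at the 3 months. The averages of all 4 Srebf2 probes were above 0 in the 1-month and 2-month pools and those of 3 in the 4-month pools, but the probes were spread over 0.42 at 1 month and 0.47 at 2 months.

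Hmgcs1, the first enzyme of the mevalonate route in this set, changed sign over time. Its brightest probe (A_51_P146941) read 0.55 and 0.49 in the 1-month pair, 0.54 and 0.13 in the 2-month pair, and -0.15 and -0.40 in the 4-month pair. Both arrays were above 0 at the first and second time and below 0 at the last, with averages of 0.52 ± 0.04, 0.33 ± 0.29 and -0.27 ± 0.17. In fold terms the alcohol pool held 1.43-fold more at 1 month, 1.26-fold more at 2 months and 1.21-fold less at 4 months. The processed signals behind the 1-month ratio were 4528 in the alcohol pool and 3101 in the control pool on one array, and 4183 and 2978 on the other. A second probe (A_52_P388072) read 0.62 and 0.61 in the 1-month pair, 0.14 and 0.51 in the 2-month pair, and -0.42 and -0.02 in the 4-month pair. Its 1-month average of 0.61 ± 0.01, or 1.53-fold, passed the 1.5-fold limit with both arrays, which 0.562% of all probes did upward at 1 month. The dimmest probe (A_52_P119039), designed to a different transcript record, averaged -0.05 at 1 month, 0.44 at 2 months and -0.02 at 4 months, so that the first and second probes differed from it by more than 0.5 at 1 month and lay within 0.13 of it at 2 months.

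Insig1, which retains SREBP when sterol is high, had the widest gap between the arrays of a pair among the brightest probes of the 8 genes at 2 and at 4 months, though not at 1 month. Its brightest probe (A_51_P290207) read -0.27 and -0.05 in the 1-month pair, -0.12 and 0.97 in the 2-month pair, and -1.51 and 0.08 in the 4-month pair. The 4-month average was -0.72 ± 1.13, 1.64-fold lower in the alcohol pool, and it came from 1 array, on which the signal was 10671 in the alcohol pool and 30447 in the control pool, while the other array gave 11569 and 10956. A second probe (A_52_P393392) read 0.13 and -0.14 in the 1-month pair, 0.26 and 0.75 in the 2-month pair, and -1.05 and -0.39 in the 4-month pair. At 4 months this probe was lower in the alcohol pool on both arrays, by 0.72 ± 0.47 or 1.65-fold, and it passed the limit with 1.46% of all probes. The averages of both probes were within 0.08 of each other at 2 and at 4 months. The arrays of the second probe lay on one side of 0 at 2 months and on the other at 4 months, and those of the first did not.

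For the enzymes after Hmgcs1, 0 of 11 probes passed the 1.5-fold limit on both arrays. Sqle, the squalene epoxidase, has 1 probe (A_51_P450487), which read 0.22 and 0.34 in the 1-month pair, -0.21 and 0.40 in the 2-month pair, and -0.28 and 0.54 in the 4-month pair. Only its 1-month average of 0.28 ± 0.09 (1.21-fold) rested on both arrays. Idi1, the isopentenyl diphosphate isomerase, averaged 0.10, -0.20 and -0.06 on its brightest probe (A_51_P329711) and 0.22, -0.32 and -0.11 on its other one (A_52_P441634). Both Idi1 probes were above 0 at 1 month and below 0 at 2 and 4 months, and for the other one both arrays were on the same side at 1 month (0.35 and 0.09) and at 2 months (-0.16 and -0.49).

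Fdps, the farnesyl diphosphate synthase, had the arrays of its brightest probe on opposite sides of 0 in every month. That probe (A_52_P593965) read 0.12 and -0.25 in the 1-month pair, 0.25 and -0.10 in the 2-month pair, and 0.69 and -0.71 in the 4-month pair. The averages of -0.06, 0.08 and -0.01 are therefore close to 0, while the SD between the 4-month arrays was 1.00 on the log2 scale. The second Fdps probe (A_51_P379798) averaged -0.20, -0.23 and -0.06, with both arrays below 0 at 1 month only. Lss, the lanosterol synthase, averaged between -0.19 and 0.09 over its 3 probes and 3 months. Its brightest probe (A_52_P168028) read -0.01 and 0.17 in the 1-month pair, -0.14 and 0.16 in the 2-month pair, and -0.20 and 0.29 in the 4-month pair.

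Cyp51, the lanosterol demethylase, was the only one of the 8 whose brightest probe had its highest average at 4 months. That probe (A_51_P485791) read 0.15 and 0.05 in the 1-month pair, -0.46 and 0.34 in the 2-month pair, and -0.13 and 0.92 in the 4-month pair, and its 4-month average of 0.39 ± 0.74 (1.31-fold) was smaller than the SD of its arrays. A second probe (A_52_P636752) read 0.23 and 0.69 at 4 months, an average of 0.46 ± 0.32 or 1.38-fold, with both arrays above 0. The third probe (A_52_P164161) was well above background in 10 of 12 channels and averaged -0.09 at 4 months. All other probes of the 8 genes were well above background in 12 of 12 channels, and none of the 20 was saturated.

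**Figure D2:**
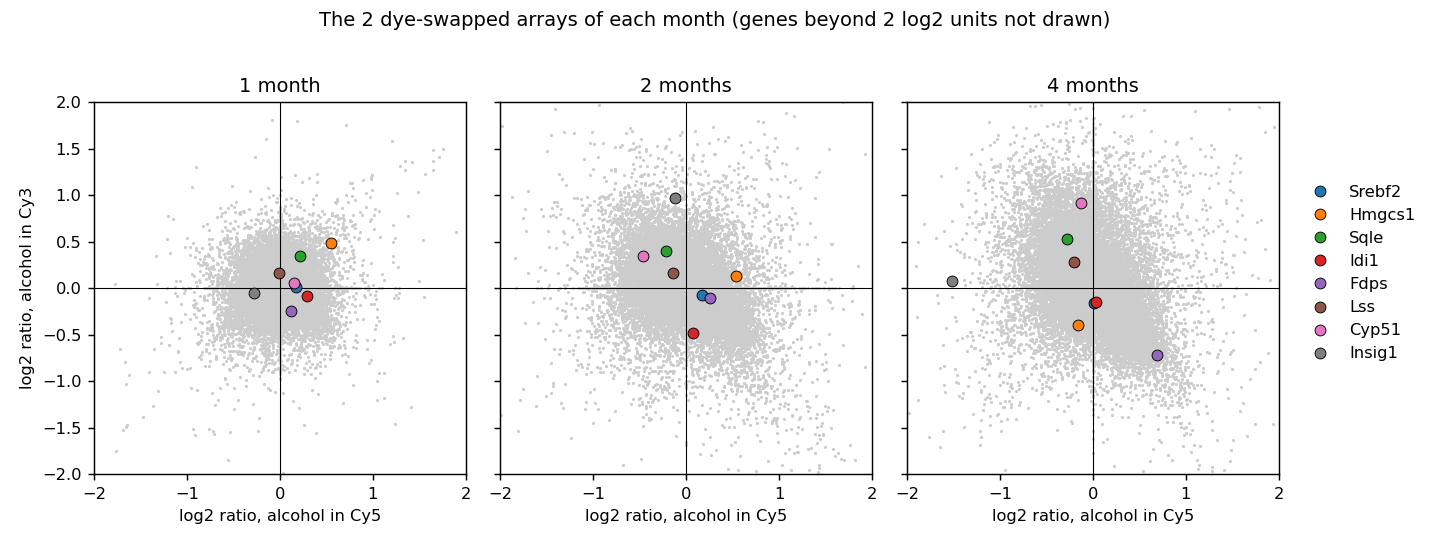
Log2 ratio on the array with alcohol in Cy5 (horizontal axis) against that on the array with alcohol in Cy3 (vertical axis), 1 panel a month, with all genes in grey and the brightest probe of each of the 8 genes in color. Genes at the upper right or lower left have the same sign on both arrays, as 5 of the 8 do in the 1-month panel and 1 in each of the other panels.

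The arrays of a pair differed more at 2 and 4 months than at 1 month. Over the 25887 genes, which are not independent replicates, ratios from the exchanged arrays were correlated with a Pearson r of 0.09 in the 1-month pair, -0.31 in the 2-month pair and -0.29 in the 4-month pair. The difference of both arrays divided by 2 holds what follows the dye together with the noise of single arrays, and its median size over the 8 genes was 0.09, 0.24 and 0.33 at the 3 months, beside a median size of the averaged ratio of 0.10, 0.09 and 0.10. Over all genes the medians were 0.10, 0.19 and 0.23, beside 0.09, 0.10 and 0.11, so the excess at 2 and 4 months was not particular to the 8 genes. Slide and the step from 1 month to the later months cannot be told apart, since the 2-month and 4-month pairs shared a slide that did not hold the 1-month pair.

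Over the 3 months, with each monthly average as 1 replicate, limma tested the mean ratio and the slope on the log2 of the month for 37922 probes. After Benjamini-Hochberg adjustment limma called 0 probes for the mean and 0 for the slope (0.0% and 0.0% of all probes), while 3028 (7.98%) and 2813 (7.42%) had an unadjusted p under 0.05. Of the 20 probes of the 8 genes, 2 had an unadjusted p under 0.05 for the mean, both of Srebf2, and 2 for the slope, both of Hmgcs1. The mean of the Srebf2 probe A_51_P377508 was 0.38 ± 0.11 (SE), above 0 at 3 of 3 months, with a limma adjusted p of 0.62. The slopes of the Hmgcs1 probes A_51_P146941 and A_52_P388072 were -0.40 ± 0.10 and -0.41 ± 0.09 (SE) per doubling of the treatment time, both with a limma adjusted p of 0.627. The slope of the third Hmgcs1 probe (A_52_P119039) was 0.016 ± 0.16 (SE). None of these passed the threshold, which does not show that the values did not differ.

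Levels were also computed for the separate pools. A level is the log2 processed signal of a pool less the 75th percentile of its channel, averaged over both arrays, and each probe is compared only with itself. Insig1 (brightest probe) stood at 2.74, 2.38 and 2.27 in the alcohol pools of 1, 2 and 4 months, and at 2.91, 1.96 and 2.99 in the control pools. Between 2 and 4 months the averaged control level thus went up by 1.03, and the alcohol level changed by -0.11. The control step rested unequally on its arrays, being 1.45 on those with alcohol in Cy5 and 0.61 on those with alcohol in Cy3, where the alcohol step was 0.06 and -0.29. On the second Insig1 probe the steps were 1.09 in the control pools (1.43 and 0.74 on the arrays) and -0.13 in the alcohol pools. For Hmgcs1 the alcohol levels were 2.03, -0.22 and 0.26, and the control levels were 1.51, -0.54 and 0.53. The 4-month level of Hmgcs1 was above that of 2 months in both pools, by 1.08 in the control pools and 0.47 in the alcohol pools, and in both it was lower at 2 months than at 1 month by over 2 log2 units, a step that crosses slides.

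**Figure D3:**
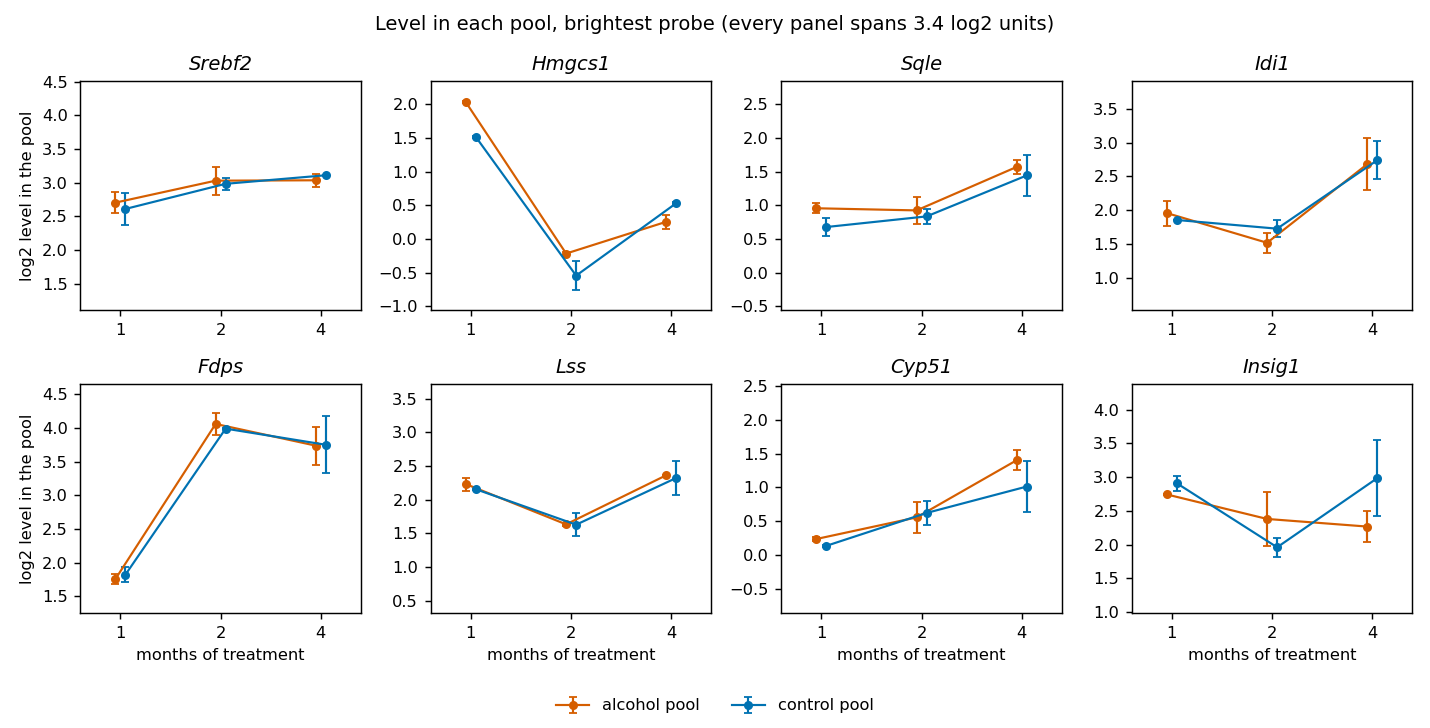
Level of the brightest probe in the alcohol and control pools (log2 processed signal less the 75th percentile of the channel) against months of treatment; points are averages of the 2 arrays, bars run from the lower to the higher array, and every panel spans the same number of log2 units. Both pools of Hmgcs1, Sqle, Idi1, Lss and Cyp51 lie higher at 4 months than at 2 months, and those of Srebf2 by 0.13 (control) and 0.01 (alcohol). Both pools of Fdps lie lower, and for Insig1 the control pool lies higher and the alcohol pool does not.

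From 2 to 4 months, within one slide, the brightest probes of 7 of the 8 genes changed in the same direction in the alcohol and control pools, as did 83.1% of all genes, so that this share was near the background. Both pools of a month lie on the same arrays. A level at least 1.5-fold higher at 4 months in the control pools and also in the alcohol pools was found for 3 of 8 genes, Sqle, Idi1 and Lss, against 7.58% of all genes. After loess and Aquantile normalization of the channels Sqle and Lss fell short and Hmgcs1 passed, which left 2 of 8 with Idi1, against 3.76% of all genes. With 1 array a pool the count was 5 of 8 against 5.83% of all genes (alcohol in Cy5), or 2 of 8, Idi1 and Lss, against 16.9% (alcohol in Cy3). The median change of the 8 genes was 0.65 in the control pools and 0.56 in the alcohol pools, where that of all genes was 0.02 and 0.03. Idi1 was higher by 1.02 and 1.17, Lss by 0.69 and 0.73, Sqle by 0.61 and 0.65 and Cyp51 by 0.39 and 0.85 on this scale in control and alcohol pools. Srebf2 changed by 0.13 and 0.01. These are differences between 1 pool and 1 pool, each from a separate array pair, without a replicate and without a test. Probes of one gene did not always share the step. The other Lss probes changed by -0.05 and -0.20 (A_52_P118161) and by 0.48 and 0.58 (A_51_P296487), and the dimmest Cyp51 probe (A_52_P164161) by -1.62 and -1.70. The brightest Fdps probe changed by -0.24 and -0.32 where the second Fdps probe changed by 0.56 and 0.73, and the dimmest Hmgcs1 probe by -0.01 and -0.47. Over the same step 5 of 6 hepatocyte markers were lower at 4 months in both groups, with a summed level going from 7.56 to 6.44 in the control pools and from 7.64 to 6.62 in the alcohol pools; Alb, the albumin gene, changed most, by -4.11 and -3.55. All 6 blood cell markers were lower and all 4 cholangiocyte markers higher in both groups as well. Other lists were mixed in both groups, with 2 Kupffer and myeloid markers higher and 2 lower, and 3 stellate and endothelial markers higher and 4 lower. Of 8 pancreas acinar markers, 8 were higher at 4 months in the alcohol pools, with a median change of 0.82 and a highest of 5.28, and 6 in the control pools, with a median of 0.21, and the part of these shifts in the sterol values was not tested.

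By the likeness rule, the genes whose 6 pool levels followed the median profile of the 8 genes most closely were Brunol5 (Pearson correlation 0.995), Cdh20 (0.994), V1re5 (0.992), Sfxn5 (0.990) and Cybasc3 (0.990), among 17698 probes well above background everywhere and with an SD over the pools of at least 0.3. Each correlation rests on 6 pools that share slides and scaling. The 8 genes themselves make up that profile, so their correlation with it is partly built in; it was 0.98 for Sqle, 0.94 for Idi1, 0.86 for Cyp51, 0.69 for Lss, 0.59 for Srebf2, 0.34 for Fdps, 0.20 for Insig1 and -0.07 for Hmgcs1.

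The rest of the pathway was examined with lists of genes, 1 probe a gene. Of 12 other sterol synthesis enzymes, 10 were above 0 on both arrays at 1 month and 1 was below 0 on both, with a median of 0.27. Of all genes, 21.4% were above 0 and 23.7% below 0 on both arrays in that month. At 2 months 1 of the 12 was above 0 on both arrays and 5 below, with a median of -0.13, where the shares of all genes were 17.2% and 15.6%. At 4 months the counts were 0 and 4, with a median of 0.014, against 14.2% and 14.8% of all genes. By the 1.5-fold rule 1 of 12 was raised at 1 month, against 0.514% of all genes, and 2 of 12 were lowered at 4 months, against 1.32%.

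Msmo1 (array name Sc4mol), the enzyme that begins removal of the other methyl groups from the sterol ring, read 0.98 and 0.75 at 1 month, an average of 0.87 ± 0.17 or 1.82-fold. Its average was 0.04 at 2 months and -0.36 at 4 months. Mvd, which makes isopentenyl diphosphate from mevalonate diphosphate, read 0.25 and 0.59 at 2 months and -0.95 and -0.58 at 4 months, when it was 1.7-fold lower in the alcohol pool (-0.76 ± 0.26). Sc5d, a desaturase late in the pathway, averaged -0.86 ± 0.51 (1.82-fold lower) at 4 months on its brightest probe, with -1.22 and -0.51 on the arrays, and -0.15 on its other probe. The brightest probes of Msmo1, Mvd, Sc5d and Hsd17b7, a sterol ketone reductase, had both arrays above 0 at 1 month and both below 0 at 4 months, as the brightest probe of Hmgcs1 did. Hsd17b7 did not pass the 1.5-fold limit in any month. Between 2 and 4 months the Mvd level went from -0.57 to 0.35 in the control pools and from -0.16 to -0.42 in the alcohol pools.

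**Figure D4:**
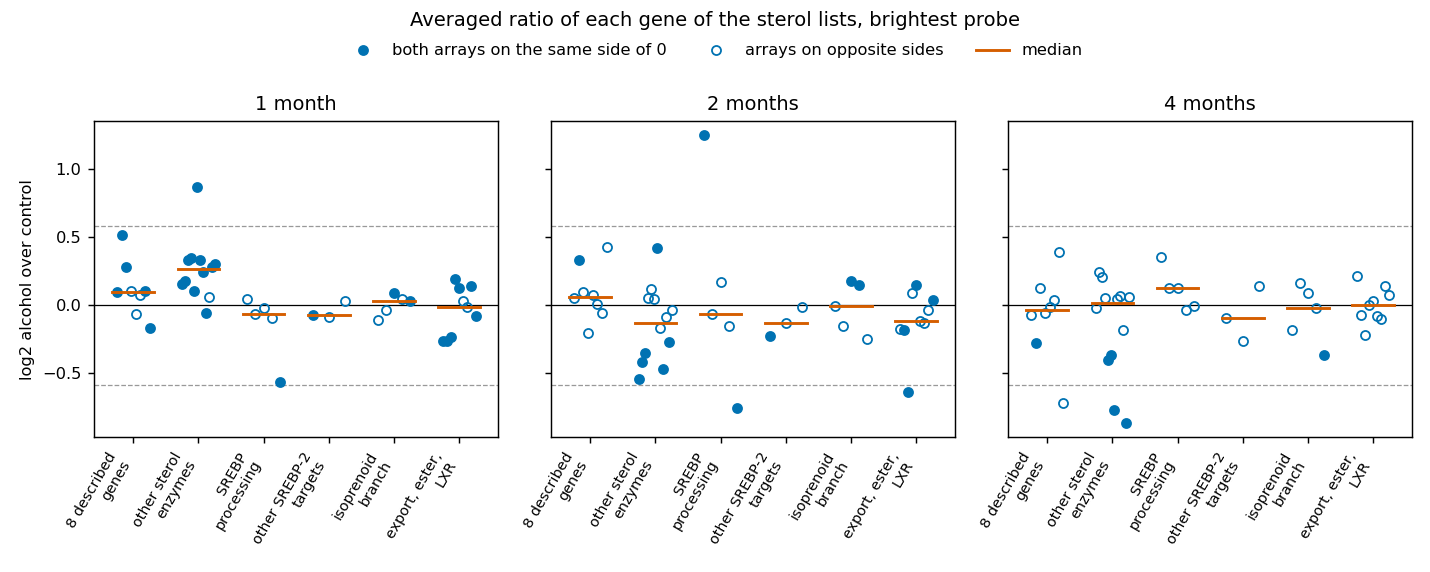
Averaged log2 ratio of alcohol over control (vertical axis) of each gene of the 8 described genes and of 5 further lists, in 1 panel a month. Filled circles have both arrays on the same side of 0, open circles do not, bars are medians and dashed lines mark 1.5-fold; at 1 month 11 of the 12 other sterol enzymes are filled, and at 2 months Insig2 stands at 1.25.

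Among the 5 genes of SREBP processing, 1 was raised and 1 lowered at 2 months, against 1.04% and 1.18% of all genes, and 0 at the other months. Insig2, the second INSIG gene, read 0.84 and 1.66 at 2 months on its brightest probe, an average of 1.25 ± 0.58 or 2.37-fold, and a second probe averaged 1.09, while the dimmest averaged 0.04. Its averages on the brightest probe were 0.04 at 1 month and 0.35 at 4 months, where the arrays read -0.21 and 0.92. The level of Insig2 in the alcohol pools was 2.31, 3.92 and 3.21 at the 3 months, against 2.27, 2.68 and 2.87 in the control pools. At 2 months both INSIG genes thus averaged above 0, Insig1 by 0.43 with its arrays on opposite sides, and at 4 months Insig1 averaged -0.72 and Insig2 0.35, with the arrays of both brightest probes on opposite sides. The second Insig2 probe (A_51_P439452) read 0.09 and 0.96 at 4 months, both above 0, where the second Insig1 probe was below 0 on both arrays. Srebf1, whose product SREBP-1 drives mainly fatty acid synthesis, read -0.76 and -0.36 at 1 month and -0.98 and -0.53 at 2 months, averages of -0.56 ± 0.29 and -0.75 ± 0.32. Srebf1 was therefore 1.69-fold lower at 2 months, past the limit, and its arrays read -0.60 and 0.59 at 4 months.

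Of 3 other SREBP-2 targets and 5 genes of the non-sterol isoprenoid branch, 0 were raised and 0 lowered at any month on their brightest probes. Of 9 genes of sterol export, esterification and LXR, the sterol sensor, 1 was lowered, at 2 months. That gene was Abcg8, part of the transporter that secretes sterol into bile, with -0.95 and -0.32 on the arrays and an average of -0.64 ± 0.45 (1.55-fold lower). The other probe of Abcg8 averaged -0.39. Among 29 dimmer probes of these 5 lists, the limit was passed by those of Insig2 above, of Acss2 at 2 months (-0.93 ± 0.37, 1.90-fold lower), of Stard4 at 4 months (-0.63 ± 0.15, 1.55-fold lower) and of Soat1 at 2 months (-1.01 ± 0.39, well above background in 7 of 12 channels). These were 4 calls over 29 probes, both directions and all months. Of all probes, 0.562%, 1.17% and 2.03% were raised at 1, 2 and 4 months, and 0.63%, 1.28% and 1.46% were lowered. The shares add up over months and directions, so no single one stands beside the 4 calls.

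In pooled liver RNA a change in cell numbers and a change in RNA per cell cannot be told apart. All 6 hepatocyte markers were well above background in every pool, and their summed level differed between alcohol and control pools by -0.08, 0.08 and 0.19 at 1, 2 and 4 months, and 0, 1 and 2 of the 6 were raised. Of all genes, 0.514%, 1.04% and 1.95% were raised in these months and 0.56%, 1.18% and 1.32% lowered. At 1 month, when most sterol enzymes were above 0, 2 of 6 blood cell markers (Hbb-b1 at 1.97 and Hba-a1 at 1.51, both globins) were raised and the summed blood level was 1.56 higher in the alcohol pool. At 2 months that difference was -0.17, and Alas2, the erythroid heme synthesis enzyme, was lowered, with an average of -0.75. At 4 months the difference was 0.46, both globins were again raised and Alas2 was lowered by 2.00. Of 8 pancreas acinar markers 5 were raised at 4 months, with all 8 above 0 on both arrays and a summed level 0.39 higher, against -0.03 and 0.01 in the earlier months. Of all genes, 14.2% were above 0 on both arrays at 4 months. Of 4 Kupffer and myeloid markers 1 was raised at 1 month (Adgre1) and 1 at 2 months (Marco), of 7 stellate and endothelial markers 1 at 1 month (Lyve1), and of 4 cholangiocyte markers 0, the summed levels of these lists differing by at most 0.23. The second probes of Adgre1 and Lyve1 averaged 0.31 and 0.40 at 1 month, short of the limit. On both arrays of that month 5 stellate and endothelial markers were above 0 and 1 below (median 0.21). For Kupffer and myeloid markers these counts were 2 and 0 (median 0.19), and for cholangiocyte markers 0 and 1 (median -0.04). The part of all these markers in the values of the sterol genes was not tested.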

How the data were processed

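Liver RNA pools were measured on 6 Agilent two-color arrays, 2 per month. The authors deposited the output of Feature Extraction 9.1.1.1, in which every spot has 2 signal intensities, corrected for background and dye, and a log10 ratio with Cy5 in the numerator. A second table, as deposited by the authors, held a score per probe, treated as a normalized log10 ratio that already ran as alcohol over control. Multiplied to log2, these scores lay within 0.02 of the scanner ratios on 100% of probes with 1 spot, and they served as an alternative. No genome build is given for the probes in the sources used here. Control spots were left out, spots of a probe were averaged, and ratios were turned to alcohol over control, multiplied to log2 and averaged over the dye-swap pair. Per array and channel, 73.3% to 90.3% of spots were well above background; the number of arrays limits the precision.

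The monthly averages of 37922 probes (well above background in any channel of any array) were tested with limma 3.58.1 under R 4.3.3, with Benjamini-Hochberg adjustment at 0.05. The step was also run on simulated data, where it missed slopes of the smallest size tried, a size larger than the Hmgcs1 slopes here. Other steps used Python 3.11.15, numpy 2.4.6 and pandas 2.3.3. Of 25510 probes with a RefSeq accession, 22951 matched a current symbol; members were taken by array name, and 13 of their 20 probes matched by accession. A probe that RefSeq assigns to neutrophil elastase was left out of the acinar list. Named genes are the 8 members, list genes past 1.5-fold with both arrays on one side, and the 5 genes most like the members' median pool profile; a probe whose gene name is its own identifier was passed over. Hsd17b7 is named outside this rule, for its change of side. The members and all lists were chosen with earlier results of these data known. Alternatives were a 2-fold limit, normexp (offset 50) with loess, the deposited table, error weighting, dropping the same-side rule, averaging probes, median centring, each array or month left out, other filters and other level scalings. The pathway analysis and the error model of the study were not repeated, and 4 genes of the lists are not reported here.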

Additional observations from a re-analysis of the deposited data

Results flagged for a closer look

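All probes of the 8 genes, and the brightest probe of each list gene past the 1.5-fold limit in at least 1 month, were searched for a change of side. For the following of them both arrays of one month lay on one side of 0 and both arrays of another month on the opposite side; the differences themselves were not tested. The Hmgcs1 probe A_51_P146941 was higher at 1 month than at 4 months by 0.79 on the log2 scale and at 2 months than at 4 months by 0.61, and A_52_P388072 by 0.83 and 0.54. The Idi1 probe A_52_P441634 was higher at 1 month than at 2 months by 0.54, the Lss probe A_52_P118161 at 1 month than at 4 months by 0.28, and the Insig1 probe A_52_P393392 at 2 months than at 4 months by 1.22. Among the other sterol enzymes, Msmo1 was higher at 1 month than at 4 months by 1.23, Mvd at 1 month and at 2 months than at 4 months by 1.098 and 1.18, and Sc5d at 1 month than at 2 months and 4 months by 0.55 and 1.15. Among the acinar markers, the difference of the earlier less the later month was -4.05 for Cela2a (1 less 4 months) and -4.27 (2 less 4), -0.91 for Cpa1 (2 less 4) after 0.23 (1 less 2), -2.48 for Cpb1 (1 less 4) and -0.72 for Prss2 (1 less 4); Cela2a was well above background in 5 of 12 channels.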

How the results depend on the processing

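Of the counts of raised and lowered genes among the 8, those at 1 month, and the lowered count at 2 months, remained 0 under every alternative run. With only 1 array of a pair, the raised count ranged from 0 to 1 at 2 months (Insig1 without the array with alcohol in Cy5) and was 1 at 4 months without either array (Cyp51 without the Cy5 array, Fdps without the Cy3 array), and the lowered count at 4 months was 1 without either array (Fdps and Insig1). The lowered count at 4 months was also 1 when both arrays were not required to be on the same side and 1 with the mean over all probes of a gene, Insig1 in both cases. After normexp and loess, limma called 9 probes for the mean and 50 for the slope, and keeping only the probes that cleared background in all 12 channels, the mean called 6; without moderation the slope called 1. No other alternative run called a probe; leaving out each month and slide as a block were run for the mean and not for the slope. The cause of these differences was not tested. Averaging all its probes moved Hmgcs1 at 1 month from 0.52 to 0.36, and Srebf2 at 2 months from 0.05 to 0.26 and at 4 months from -0.07 to 0.08. After loess and Aquantile the step from 2 to 4 months in the alcohol pools was 0.60 in place of 0.47 for Hmgcs1 and 0.53 in place of 0.73 for Lss. Alternatives for 8 other probes past 1.5-fold (1 each of Hmgcs1, Insig1, Insig2, Msmo1, Mvd, Sc5d, Srebf1 and Abcg8) were chosen after seeing the data, and these kept their sign; none was run for the dimmer probes of Insig2, Acss2, Stard4 and Soat1 or for marker genes; the single arrays closest to 0 were -0.39 for the second Insig1 probe and -0.32 for Abcg8. In alternatives added after seeing the data, a level at least 1.5-fold higher at 4 months than at 2 months in both pools was found for 5 genes in place of 3 with only the arrays with alcohol in Cy5 (5.83% of all genes) and for 2 with only those with alcohol in Cy3 (16.9%). No paired analysis was possible because replicate numbers only name the arrays of a month; each ratio already compares both pools on 1 array.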
